A study of Saccharomyces cerevisiae with 6 samples.

Results

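The tricarboxylic acid cycle oxidises acetyl groups in the mitochondrial matrix and passes their electrons to the respiratory chain. In Saccharomyces cerevisiae growing on glucose, transcription of many of its enzymes is held low, and the CCAAT-binding HAP complex and, for the early steps of the cycle, the retrograde factors Rtg1 and Rtg3 act as activators. The 10 genes described here were chosen by name from the gene table, as CIT1, ACO1, IDH1, IDH2, KGD1, KGD2, LSC1, LSC2, FUM1 and MDH1. They encode the soluble enzymes of the cycle in mitochondria, from citrate synthase to malate dehydrogenase. All 10 were among the 7125 genes of the table and among the 6080 that were tested.

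RNA was sequenced from a strain of the S288C background in which KAP114 was knocked out and from a wild-type strain of the same background, both in rich YPD medium, whose sugar is glucose, to which 1.5 M NaCl had been added. Kap114, a karyopherin, is a nuclear import receptor that carries the TATA-binding protein and histones. There were 3 libraries of each genotype, with poly(A) selection, and their comparison asks how the transcriptomes of the knockout and the wild type differ in high salt. Both genotypes carried the same salt, so the values compare genotypes in salt and not salt with its absence. The names of all 6 libraries also carry the tag TAF1, which the labels do not explain, so a feature common to both strains may be missing from this description. The labels do not say whether replicate libraries were grown separately, so the p-values reflect the spread among 3 libraries a genotype, possibly of technical origin alone.

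Library totals were between 34685666 and 38540115 counts in the knockout and between 33638728 and 37893192 counts in the wild type. KAP114 had 0 counts in each knockout library, against 257, 336 and 312 counts in wild-type libraries 1 to 3. Of the 3 knockout libraries, library 1 lay nearest to the wild-type mean for 7 of the 10 cycle genes, and library 2 lay farthest from it for 7. The same shares over all tested genes were not computed. The ribosomal RNA locus RDN37 took 12.3%, 9.05% and 11.3% of counts in knockout libraries 1 to 3, against 3.69%, 4.54% and 3.77% in wild-type libraries 1 to 3. The counts of the 10 genes were between 3162 (LSC1) and 47348 (CIT1) in a library, so the counting error of the lowest value was 1.78%.

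The promoters of the genes on which the comparison turns are shown first, since several cycle promoters are known to bind the HAP complex at CCAAT. These are KGD1, KGD2 and IDH1, lower in the knockout, IDH2, the partner subunit of IDH1, and LSC1 and FUM1, higher in the knockout. Each window runs from base -350 to base -101 before the start codon, is read 5′ to 3′ along the gene's strand, and comes from the RefSeq copy of build R64. The windows are KGD1, chrIX:122339-122588 (plus strand), KGD2, chrIV:755167-755416 (minus strand), IDH1, chrXIV:559103-559352 (minus strand), IDH2, chrXV:579900-580149 (plus strand), LSC1, chrXV:592707-592956 (plus strand) and FUM1, chrXVI:46986-47235 (plus strand). Capitals mark CCAAT or, on the other strand, ATTGG.
KGD1: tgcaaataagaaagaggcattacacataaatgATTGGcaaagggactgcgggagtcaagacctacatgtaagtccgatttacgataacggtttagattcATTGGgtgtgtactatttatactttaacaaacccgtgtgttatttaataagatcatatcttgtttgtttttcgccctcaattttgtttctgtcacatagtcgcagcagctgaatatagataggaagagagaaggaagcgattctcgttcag
KGD2: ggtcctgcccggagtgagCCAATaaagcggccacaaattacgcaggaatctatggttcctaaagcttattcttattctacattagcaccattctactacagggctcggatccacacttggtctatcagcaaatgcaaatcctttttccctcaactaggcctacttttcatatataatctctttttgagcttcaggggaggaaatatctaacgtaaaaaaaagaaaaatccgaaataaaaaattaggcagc
IDH1: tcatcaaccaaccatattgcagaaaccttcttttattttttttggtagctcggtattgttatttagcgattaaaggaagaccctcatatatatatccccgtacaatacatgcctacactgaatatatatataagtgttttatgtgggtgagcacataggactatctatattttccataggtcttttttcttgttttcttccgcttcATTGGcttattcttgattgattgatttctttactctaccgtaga
IDH2: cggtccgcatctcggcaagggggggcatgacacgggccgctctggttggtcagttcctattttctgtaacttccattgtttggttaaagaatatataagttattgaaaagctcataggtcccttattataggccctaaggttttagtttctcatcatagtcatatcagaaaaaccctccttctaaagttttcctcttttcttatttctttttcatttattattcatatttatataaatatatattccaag
LSC1: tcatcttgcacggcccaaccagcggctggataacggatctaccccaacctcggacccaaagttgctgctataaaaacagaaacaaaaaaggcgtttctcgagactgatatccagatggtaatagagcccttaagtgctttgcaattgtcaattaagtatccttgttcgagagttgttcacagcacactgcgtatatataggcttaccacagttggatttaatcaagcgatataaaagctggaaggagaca
FUM1: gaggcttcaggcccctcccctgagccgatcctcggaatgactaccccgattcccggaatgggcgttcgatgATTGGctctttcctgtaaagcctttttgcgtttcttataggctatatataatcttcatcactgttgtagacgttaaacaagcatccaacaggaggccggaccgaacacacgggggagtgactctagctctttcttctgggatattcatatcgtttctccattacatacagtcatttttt

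CCAAT was found on either strand in the windows of 7 of the 10 cycle genes, against 37.8% of the windows of the same length before 5746 tested protein-coding genes. KGD1, ACO1 and MDH1 held 2 matches each, and CIT1, IDH1, KGD2 and FUM1 held 1 each. IDH2, LSC1 and LSC2 held none in this window. GTCAC, the core of the site bound by Rtg1 and Rtg3, was found on either strand before KGD1, LSC2 and FUM1, against 24.9% of all windows. CCCCT, the stress element bound by Msn2 and Msn4, was found on either strand before 5 cycle genes, namely CIT1, IDH2, KGD2, FUM1 and MDH1, against 20.5% of all windows. No match of these 3 motifs overlapped a match of another. These are matches of letters in a fixed window and not mapped binding sites.

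The cycle genes did not change as a block. By the quasi-likelihood test of edgeR, with p adjusted after Benjamini-Hochberg over all tested genes, 3 were lower in the knockout at an adjusted p under 0.05 (KGD1, KGD2 and IDH1), 2 were higher (FUM1 and LSC1) and 5 did not pass (CIT1, ACO1, IDH2, LSC2 and MDH1). Over all tested genes 30.0% were lower and 34.3% higher, 64.3% in either direction, so a count of 3 and 2 among 10 is near the background. The median log2 fold change was -0.23 for the cycle genes, with values from -0.91 to 0.63, and 0.01 for all tested genes. The TPM values of the genotypes, the authors' levels per transcript length scaled to the same total in each library, did not overlap for 7 of the 10 genes, 5 with the knockout below and 2 with it above, against 74.3% of all tested genes (39.4% with the knockout below and 34.9% with it above). In bulk RNA, fewer cells that carry a transcript and less of it per cell cannot be told apart.

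The count of lower genes moved with single libraries and with the test. The number of lower genes was 0 without knockout library 3 or without wild-type library 1, 1 without wild-type library 3, 2 without knockout library 2 or wild-type library 2, and 5 without knockout library 1. The split was 2 higher and 5 lower with scaling by library totals only, which also moved the median over all tested genes to -0.13 on the log2 scale, with DESeq2, and in limma on log2(TPM + 1). With scaling by library totals without RDN37, 2 cycle genes were higher and 4 lower. FUM1 passed in the same direction in all 17 alternatives, LSC1 in 16, KGD1 in 15, KGD2 in 14 and IDH1 in 12. In the authors' deposited table, KGD1 and KGD2 were lower and FUM1 and LSC1 higher at a false discovery rate under 0.05, and IDH1 had a false discovery rate of 0.0552. Over the tested genes, 27.3% were lower and 32.3% higher in the authors' deposited table by that rule.

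**Figure D1:**
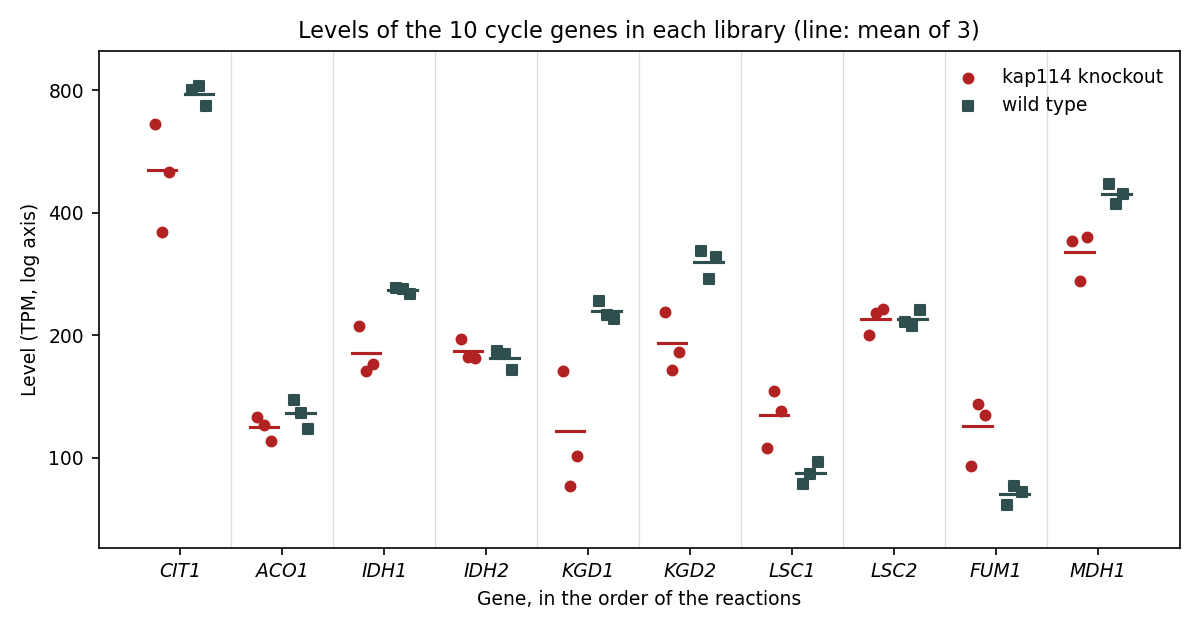
Level of each of the 10 cycle genes in TPM (log axis) in the 3 knockout libraries (circles) and the 3 wild-type libraries (squares), with a line at each mean. CIT1, IDH1, KGD1, KGD2 and MDH1 lay lower in every knockout library than in any wild-type library, and LSC1 and FUM1 lay higher.

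**Figure D2:**
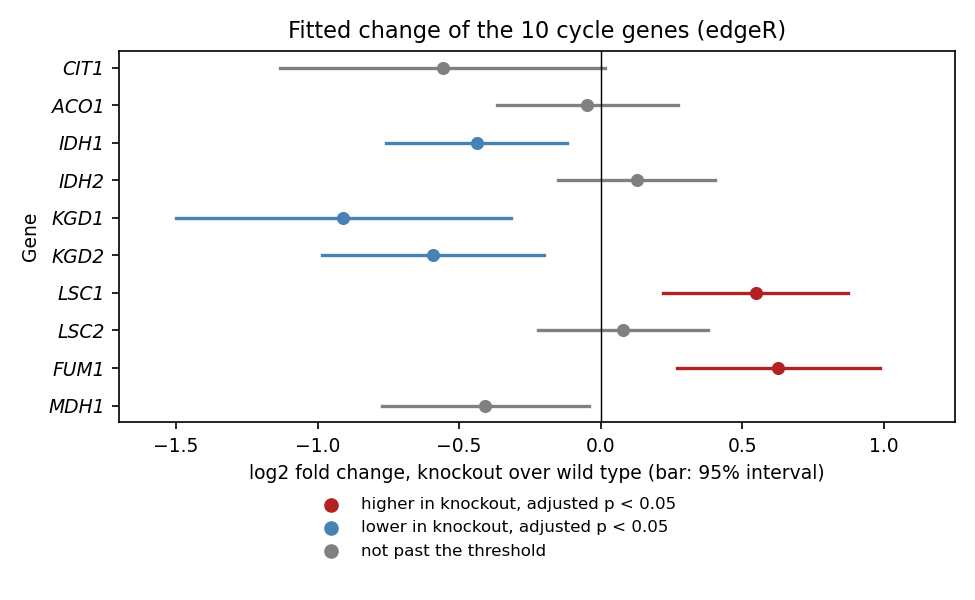
Fitted log2 fold change, knockout over wild type, of each cycle gene (point) with its 95% interval (bar), from edgeR's quasi-likelihood fit. The intervals are not adjusted for the number of genes: that of MDH1 ends at -0.04 although its adjusted p was 0.0522.

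The cycle begins with citrate synthase, which condenses acetyl-CoA with oxaloacetate. CIT1 (YNR001C, chromosome XIV, 629622 to 631061, build R64), which encodes the mitochondrial enzyme, had 659.9, 359 and 505 TPM in knockout libraries 1 to 3, against 801, 820.3 and 732 TPM in wild-type libraries 1 to 3. The groups did not overlap, but the knockout libraries spread over a wide range, with library 2 lowest. The log2 fold change was -0.56 ± 0.24 (SE; 95% interval -1.13 to 0.01), with an edgeR adjusted p of 0.0788. CIT1 passed in 6 of 17 alternatives, namely without knockout library 1 (edgeR adjusted p = 0.00232), with DESeq2 (0.0161), with scaling by library totals only (0.0339), with the replicate number as a block (0.0473) and in limma on log2(TPM + 1) and log2(TPM + 0.1) (0.0392 and 0.0394). It missed the threshold in the other 11, among them the other 5 fits with a library left out.

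Aconitase converts citrate to isocitrate, and the enzyme also helps to maintain mitochondrial DNA in yeast. ACO1 (chromosome XII, 735212 to 737548) had 126, 120.2 and 109.7 TPM in knockout libraries 1 to 3, against 139, 129 and 118 TPM in wild-type libraries 1 to 3. The groups overlapped. The log2 fold change was -0.05 ± 0.14 (SE), its 95% interval was -0.37 to 0.27, and the edgeR adjusted p was 0.778.

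The NAD-dependent isocitrate dehydrogenase is an octamer of equal numbers of Idh1, a regulatory subunit, and Idh2, the catalytic subunit. IDH1 (chromosome XIV, 557920 to 559002) had 210.4, 163 and 169.6 TPM in knockout libraries 1 to 3, against 261, 259 and 253 TPM in wild-type libraries 1 to 3. Every knockout library was below every wild-type library. The log2 fold change was -0.44 ± 0.14 (SE), 1.35-fold lower, with an edgeR adjusted p of 0.0248. Of the 6 fits that left out 1 library, IDH1 passed in that without knockout library 1 and missed in the other 5, with an edgeR adjusted p of 0.0650 to 0.104.

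IDH2 (chromosome XV, 580250 to 581359) had 196, 177 and 176 TPM in knockout libraries 1 to 3, against 183, 179.9 and 164 TPM in wild-type libraries 1 to 3. These values overlapped, and the edgeR adjusted p was 0.372, with a log2 fold change of 0.13 ± 0.12 (SE; 95% interval -0.15 to 0.40). Its first 251 bases are shared with the opposite-strand gene IRC14, which had 14 to 18 counts in the knockout libraries and 13 to 33 in the wild-type libraries, far under the counts of IDH2; whether counting used the strand is not stated in the sources seen. The ratio of IDH1 to IDH2 in TPM was 0.988 ± 0.0782 in the knockout and 1.47 ± 0.0621 in the wild type (SD, n = 3 each). The ratios did not overlap. In an exact two-sided permutation test over libraries the p was 0.10, the smallest that 3 against 3 allows, and 0.129 when adjusted over the 9 ratios given here.

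The alpha-ketoglutarate dehydrogenase complex makes succinyl-CoA, and KGD1 and KGD2 encode its E1 dehydrogenase and its E2 transsuccinylase. KGD1 (chromosome IX, 122689 to 125733) had 163, 85.0 and 101 TPM in knockout libraries 1 to 3, against 243, 224 and 219 TPM in wild-type libraries 1 to 3. It fell 1.88-fold, the largest fitted decrease among the 10 genes, at -0.91 ± 0.25 (log2 fold change, SE; edgeR adjusted p = 0.0162). The call ended without knockout library 3 (edgeR adjusted p = 0.0675) and without wild-type library 1 (0.0593).

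KGD2 (chromosome IV, 753675 to 755066) had 228, 164 and 182 TPM in knockout libraries 1 to 3, against 321, 275 and 311 TPM in wild-type libraries 1 to 3. It fell 1.51-fold, at -0.59 ± 0.17 (log2 fold change, SE), with an edgeR adjusted p of 0.0173. Its call ended without knockout library 3 (edgeR adjusted p = 0.0719), wild-type library 1 (0.0707) or wild-type library 3 (0.0593). As for IDH1, all knockout libraries lay below all wild-type libraries for both subunits. The ratio of KGD1 to KGD2 in TPM was 0.714, 0.518 and 0.556 in knockout libraries 1 to 3, against 0.755, 0.813 and 0.707 in wild-type libraries 1 to 3. These ratios overlapped, and the exact two-sided permutation p was 0.20.

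The other subunits of this complex were also lower in the knockout. KGD4, listed in the table as YMR31, encodes a small subunit that joins the complex, and it fell 1.74-fold, with 170.3, 112 and 128 TPM in knockout libraries 1 to 3 against 249, 259 and 241 TPM in wild-type libraries 1 to 3 (edgeR adjusted p = 0.00406). LPD1 encodes the E3 lipoamide dehydrogenase, which the pyruvate dehydrogenase complex shares. It fell to 234, 229 and 235 TPM in knockout libraries 1 to 3, against 318, 302 and 319 TPM in wild-type libraries 1 to 3. Its log2 fold change was -0.36 ± 0.13 (SE; edgeR adjusted p = 0.0435). The LPD1 call ended with upper-quartile scaling (0.0822), with the replicate number as a block (0.0588), and when any library except knockout library 1 was left out (0.0778 to 0.146). The ratio of LPD1 to KGD1 in TPM was 2.15 ± 0.644 in the knockout and 1.37 ± 0.0737 in the wild type (SD, n = 3 each), and the groups overlapped (exact two-sided permutation p = 0.20).

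Succinyl-CoA ligase forms succinate, with LSC1 for its alpha subunit and LSC2 for its beta subunit. LSC1 (chromosome XV, 593057 to 594046) had 105, 146 and 130.3 TPM in knockout libraries 1 to 3, against 86.2, 91.2 and 97.5 TPM in wild-type libraries 1 to 3. It rose 1.46-fold, at 0.55 ± 0.14 (log2 fold change, SE), with an edgeR adjusted p of 0.0118, or 0.0502 without wild-type library 1.

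LSC2 (chromosome VII, 978036 to 979319) had 201, 226 and 232 TPM in knockout libraries 1 to 3, against 215, 210.5 and 230.0 TPM in wild-type libraries 1 to 3. The groups overlapped, with a log2 fold change of 0.08 ± 0.13 (SE; 95% interval -0.22 to 0.38) and an edgeR adjusted p of 0.610. The ratio of LSC1 to LSC2 in TPM was 0.578 ± 0.0612 in the knockout and 0.419 ± 0.0167 in the wild type (SD, n = 3 each). The alpha subunit transcript thus stayed below that of the beta subunit in every library, and the ratios of the genotypes did not overlap (exact two-sided permutation p = 0.10, the smallest possible, 0.129 adjusted over the 9 ratios).

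Succinate dehydrogenase, which is both a cycle enzyme and complex II of the respiratory chain, is not among the 10 genes and lies between LSC and FUM1 in the cycle. Of its 4 subunit genes, 3 fell and SDH3 did not pass, against 30.0% lower and 34.3% higher over all tested genes. SDH1, for the flavoprotein, fell 1.93-fold, SDH2, for the iron-sulfur protein, 2.17-fold, and SDH4, for a membrane anchor, 1.56-fold (edgeR adjusted p = 0.00723, 0.00569 and 0.00955). SDH3, for the other anchor, had 672, 375 and 511 TPM in knockout libraries 1 to 3, against 701, 746 and 734 TPM in wild-type libraries 1 to 3 (edgeR adjusted p = 0.122). It passed without knockout library 1 (edgeR adjusted p = 0.00251) and with scaling by library totals only (0.0477). All 7 genes for assembly factors and paralogues of the complex were lower, against 30.0% of all tested genes. Among them were SDH5 (1.92-fold), SDH7 (1.94-fold), SDH8 (2.35-fold) and SHH4 (2.55-fold). Sdh5 attaches the flavin to Sdh1, Sdh7 and Sdh8 are assembly factors, and Shh4 is a paralogue of Sdh4.

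Fumarase hydrates fumarate to malate in mitochondria and in the cytosol, both from the single gene FUM1. FUM1 (chromosome XVI, 47336 to 48802) had 95.3, 135 and 127 TPM in knockout libraries 1 to 3, against 76.4, 85.2 and 82.1 TPM in wild-type libraries 1 to 3. Every knockout library was above every wild-type library. FUM1 rose 1.55-fold, the largest fitted increase among the 10 genes, at 0.63 ± 0.15 (log2 fold change, SE), with an edgeR adjusted p of 0.00983.

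Malate dehydrogenase closes the cycle by making oxaloacetate. MDH1 (chromosome XI, 279123 to 280127), for the mitochondrial enzyme, had 341, 272 and 348 TPM in knockout libraries 1 to 3, against 471, 420.2 and 445 TPM in wild-type libraries 1 to 3. The groups did not overlap, with the knockout below. The log2 fold change was -0.41 ± 0.16 (SE; 95% interval -0.77 to -0.04), and the edgeR adjusted p was 0.0522. MDH1 lay close to the threshold and passed in 9 of 17 alternatives, among them DESeq2 (adjusted p = 0.00602) and RLE scaling in edgeR (0.0407).

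The order of the levels per length also differed in places. CIT1 and MDH1 were the most abundant cycle transcripts in both genotypes, at 508 ± 151 and 320.2 ± 42.2 TPM in the knockout, against 784 ± 46.5 and 446 ± 25.6 TPM in the wild type (SD, n = 3 each). In the knockout they were followed by LSC2, KGD2, IDH2, IDH1, LSC1, FUM1, ACO1 and KGD1, and in the wild type by KGD2, IDH1, KGD1, LSC2, IDH2, ACO1, LSC1 and FUM1. KGD1 thus had the lowest mean in the knockout, at 116 ± 41.1 TPM, and FUM1 the lowest in the wild type, at 81.3 ± 4.49 TPM (SD, n = 3 each). In the knockout the libraries' ranges overlapped between neighbours in that order from LSC2 to IDH1 and from LSC1 to KGD1, so those places are not separated. In the wild type only KGD1 and LSC2 had overlapping ranges.

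Summed over the 10 genes, the cycle took 2325, 1848 and 2079 TPM in knockout libraries 1 to 3, against 2796, 2694 and 2652 TPM in wild-type libraries 1 to 3. The sums did not overlap, and the knockout mean was 0.768 of the wild-type mean (exact two-sided permutation p = 0.10, the smallest possible). Without CIT1, the most abundant of the 10, this ratio of means was 0.817. RDN37 is part of the total to which TPM is scaled; with TPM rescaled without it, an alternative chosen after seeing the data, the ratio of means was 0.778.

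**Figure D3:**
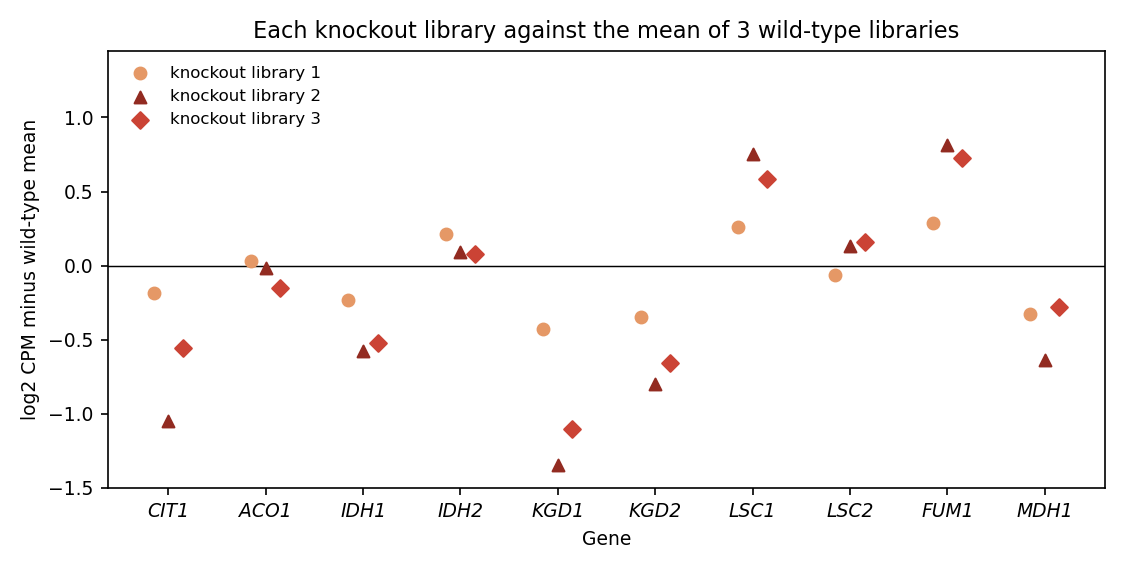
Difference of each knockout library from the mean of the 3 wild-type libraries in log2 CPM, for each cycle gene (CPM, counts scaled to the same effective library size with TMM factors). Library 2 lay farthest from 0 for 7 of the 10 genes, for KGD1 at -1.35, against -0.43 in library 1 and -1.10 in library 3.

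The knockout libraries differed among themselves more than the wild-type libraries did. The range over 3 libraries in log2 CPM was wider in the knockout than in the wild type for 8 of the 10 genes, the exceptions being ACO1 and IDH2. The coefficient of variation was 34.5% in the knockout and 7.84% in the wild type for KGD1, the gene with the widest knockout spread. For 8 of the 10 genes all knockout libraries lay on the same side of the wild-type mean, and ACO1 and LSC2 were the exceptions. The same shares over all tested genes were not computed, so these counts cannot be called particular to the cycle genes. Over nearly all tested genes, libraries were also compared by chi-square per degree of freedom, which grows with disagreement beyond counting error. It was 809 for knockout libraries 1 and 2, 451 for 1 and 3, and 106 for 2 and 3. The same wild-type pairs gave 67.5, 38.1 and 34.2. The wider spread of the knockout was thus not confined to the cycle genes. The TPM values of the genotypes did not overlap for 74.3% of all tested genes. Knockout library 1 deviated less than libraries 2 and 3 for KGD1, KGD2, IDH1, CIT1, LSC1 and FUM1, whichever way the gene changed.

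Subunits of the same enzyme were not close neighbours by their profile over the 6 libraries. Profiles were compared as log2 CPM centred on each gene's mean, with the root-mean-square distance as the measure, over genes with a mean of at least 10 CPM. Of 5188 other genes, KGD2 ranked 817 by closeness to KGD1, LSC2 ranked 1270 by closeness to LSC1, and IDH2 ranked 2217 by closeness to IDH1. In the other direction, KGD1 ranked 1490 from KGD2, LSC1 ranked 1783 from LSC2, and IDH1 ranked 2185 from IDH2. The distance keeps the size of a change, so genes that move the same way by different folds also count as apart. Among genes outside the 10, the profile nearest to FUM1 was that of URA6, for uridylate kinase (distance 0.0237), followed by HST3 (0.0301), for a sirtuin, and CEX1 (0.0357), for a tRNA export factor. Nearest to KGD1 were AKR2 (0.0267), MET4 (0.0398), for the activator of sulfur amino acid genes, and MCK1 (0.0434), for a protein kinase. These ranks describe 6 libraries and nothing more.

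**Figure D4:**
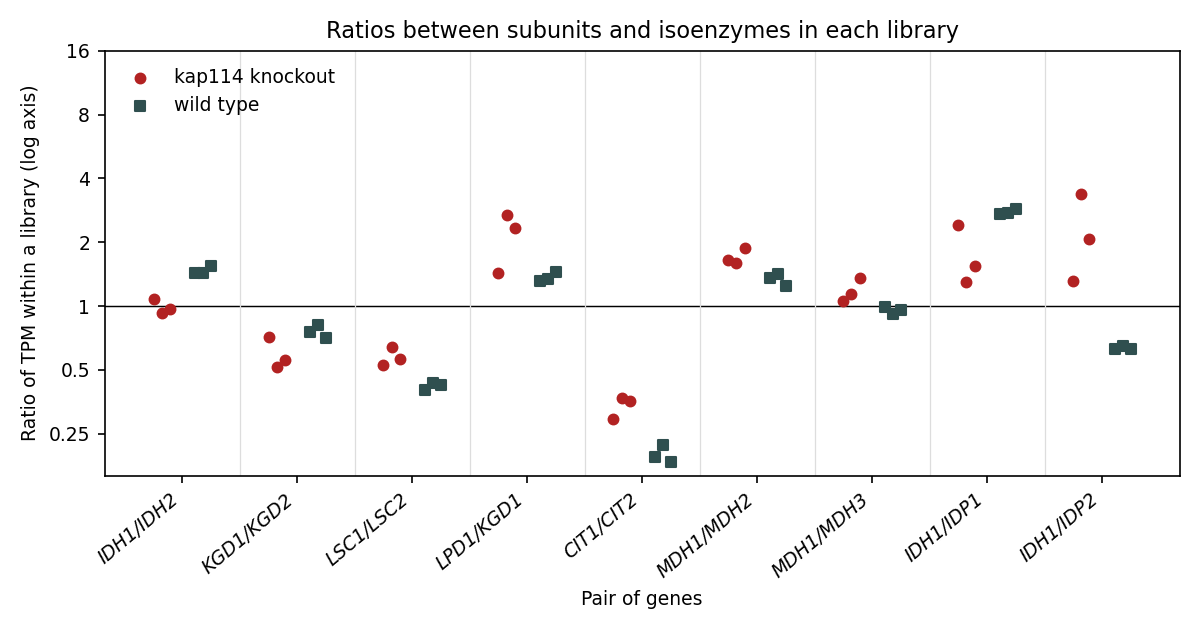
Ratio of TPM between pairs of genes within each library (log axis), in the 3 knockout libraries (circles) and the 3 wild-type libraries (squares). The genotypes did not overlap for 7 of the 9 ratios, and IDH1/IDP2 lay above 1 in the knockout and below 1 in the wild type.

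Several steps have isoenzymes besides the cycle's own, and of the 7 such genes examined 5 fell and none passed as higher. Over all tested genes, 30.0% were lower and 34.3% higher. CIT2, for the peroxisomal citrate synthase and a classical target of the retrograde pathway, had 2250.5, 975 and 1417 TPM in knockout libraries 1 to 3, against 4102, 3695 and 3979 TPM in wild-type libraries 1 to 3. It fell 2.42-fold (edgeR adjusted p = 0.0126, or 0.0583 without knockout library 3). CIT2 was more abundant than CIT1 in every library, and the ratio of CIT1 to CIT2 in TPM was 0.339 ± 0.0402 in the knockout and 0.200 ± 0.0196 in the wild type (SD, n = 3 each).

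MDH2, for the cytosolic malate dehydrogenase, fell 1.69-fold and MDH3, for the peroxisomal enzyme, 1.62-fold (edgeR adjusted p = 0.00383 and 0.00703). The ratio of MDH1 to MDH2 in TPM was 1.71 ± 0.152 in the knockout and 1.34 ± 0.0864 in the wild type, and that of MDH1 to MDH3 was 1.18 ± 0.151 in the knockout and 0.960 ± 0.0358 in the wild type (SD, n = 3 each). For malate dehydrogenase, the mitochondrial transcript therefore took a larger share against each isoenzyme in every knockout library.

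IDP2, for the cytosolic NADP-dependent isocitrate dehydrogenase, fell to 160.5, 48.3 and 81.8 TPM in knockout libraries 1 to 3, against 417, 399 and 403 TPM in wild-type libraries 1 to 3 (edgeR adjusted p = 0.00445). The ratio of IDH1 to IDP2 in TPM was 1.31, 3.38 and 2.07 in knockout libraries 1 to 3, against 0.625, 0.649 and 0.627 in wild-type libraries 1 to 3. IDH1 was thus above IDP2 in each knockout library and below it in each wild-type library. The ratio of IDH1 to IDP1, for the mitochondrial NADP-dependent enzyme, was 1.75 ± 0.578 in the knockout and 2.78 ± 0.0717 in the wild type (SD, n = 3 each), also without overlap. For each of the 7 ratios without overlap the exact two-sided permutation p was 0.10, the smallest possible, and 0.129 adjusted over the 9 ratios.

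**Figure D5:**
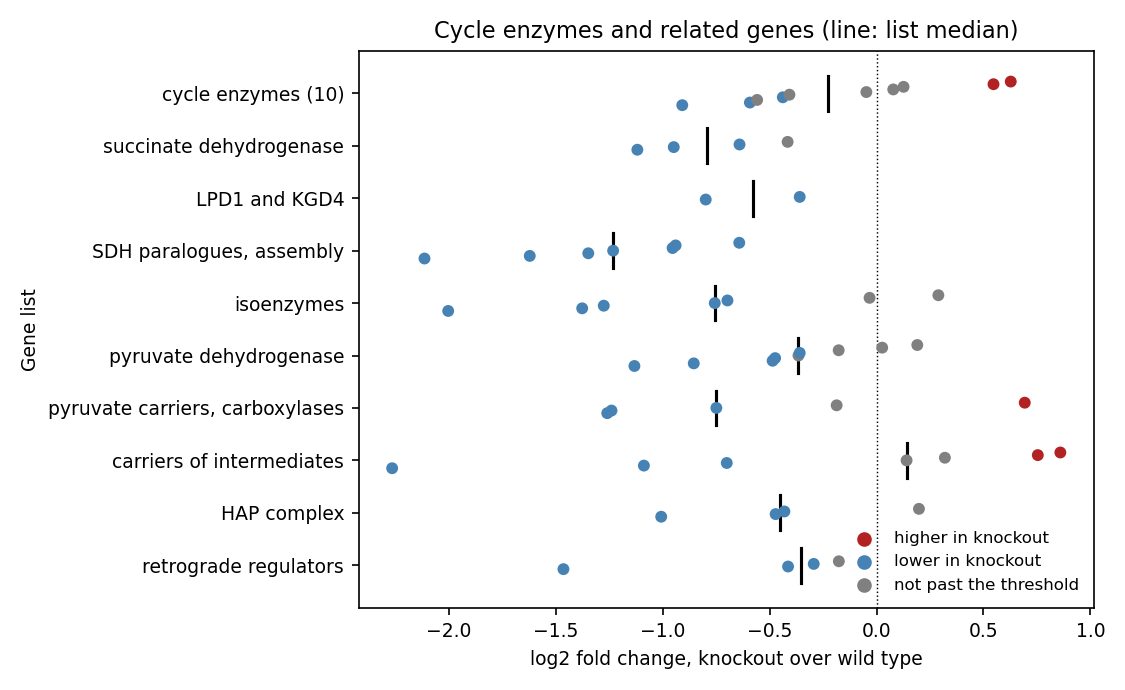
Fitted log2 fold change, knockout over wild type, of the 10 cycle genes and of each gene on 9 lists of related genes (points), with a black line at each list's median. LPD1 stands on 2 lists, and the medians are -0.23 for the cycle genes, -0.79 for succinate dehydrogenase and 0.14 for the carriers of intermediates.

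Among the listed genes that feed and surround the cycle, more were lower than higher in the knockout. Of 48 related genes on 9 lists, 33 (68.8%) were lower and 3 (6.25%) higher, against 30.0% and 34.3% of all tested genes, with a median log2 fold change of -0.67. The lists were chosen with earlier results of these data known, so this contrast is a description and not a test. The number of lower genes among the 48 was 22 without knockout library 3 and 36 without knockout library 1.

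Pyruvate enters the matrix through the mitochondrial pyruvate carrier and is oxidised by the pyruvate dehydrogenase complex. Of 9 genes for this complex and its regulators, 5 fell and none passed as higher, against 30.0% lower and 34.3% higher over all tested genes. PDX1, for the E3-binding protein, fell 1.39-fold and PDA1, for the E1 alpha subunit, 1.40-fold (edgeR adjusted p = 0.00541 and 0.0220). The call of PDA1 ended without knockout library 3 or any wild-type library (edgeR adjusted p from 0.0515 to 0.0982). PKP1, for a kinase that inactivates the complex, fell 1.81-fold and PTC6, for a phosphatase that reactivates it, 2.19-fold (edgeR adjusted p = 0.00207 and 0.00493).

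Among 5 genes for pyruvate carriers and carboxylases, 3 fell and 1 rose, against 30.0% lower and 34.3% higher over all tested genes. MPC3, for the carrier subunit used in respiratory growth, fell 2.36-fold and MPC1, for the subunit common to both forms of the carrier, 1.68-fold (edgeR adjusted p = 0.0180 and 0.0306). The call of MPC3 ended without knockout library 3 or wild-type library 1 or 3 (edgeR adjusted p between 0.0523 and 0.0622). MPC1 likewise missed the threshold without knockout library 3 or any wild-type library (edgeR adjusted p between 0.0660 and 0.0965). The carboxylases, which replenish oxaloacetate, moved in opposite directions. PYC1 had 586, 288 and 369.9 TPM in knockout libraries 1 to 3, against 1124, 1001 and 995 TPM in wild-type libraries 1 to 3, while PYC2 had 48.1, 77.0 and 65.6 TPM in knockout libraries 1 to 3, against 40.1, 41.7 and 42.4 TPM in wild-type libraries 1 to 3 (edgeR adjusted p = 0.00916 and 0.0128).

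The mitochondrial carriers of cycle intermediates were divided, with 3 of 7 lower and 2 higher, against 30.0% and 34.3% of all tested genes, so this count is near the background. SFC1, for the carrier that exchanges succinate for fumarate, had 54.2, 11.3 and 24.1 TPM in knockout libraries 1 to 3, against 158, 159 and 134 TPM in wild-type libraries 1 to 3. SFC1 fell 4.81-fold (edgeR adjusted p = 0.00645). ODC1, for a carrier of oxoglutarate and related acids, fell 2.13-fold, whereas ODC2, for its paralogue, rose 1.69-fold (edgeR adjusted p = 0.00382 and 0.00406). DIC1, for the dicarboxylate carrier, rose 1.81-fold (edgeR adjusted p = 0.00743).

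Of the 4 HAP genes, 3 fell, against 30.0% lower and 34.3% higher over all tested genes. HAP2 fell 2.01-fold, HAP3 1.39-fold and HAP5 1.35-fold (edgeR adjusted p = 0.00263, 0.00989 and 0.0211); these encode the DNA-binding subunits. The call of HAP5 ended without knockout library 3, wild-type library 1 or wild-type library 3 (edgeR adjusted p from 0.0585 to 0.0833) and with upper-quartile scaling (0.0608). HAP4, for the activating subunit whose synthesis is known to be repressed by glucose, had 147, 146 and 163 TPM in knockout libraries 1 to 3, against 134, 136 and 147 TPM in wild-type libraries 1 to 3. The HAP4 values overlapped in TPM but not in CPM, where every knockout library lay above every wild-type library. HAP4 did not pass as higher (edgeR adjusted p = 0.179).

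Of the 4 retrograde regulators, 3 fell, against 30.0% lower and 34.3% higher over all tested genes. RTG1, for a subunit of the DNA-binding pair, had 195, 88.1 and 98.6 TPM in knockout libraries 1 to 3, against 392, 333 and 377 TPM in wild-type libraries 1 to 3, and fell 2.76-fold (edgeR adjusted p = 0.00465). RTG3, for its partner, fell 1.23-fold (edgeR adjusted p = 0.0264), a call that ended with upper-quartile scaling (0.0581) and without knockout library 2 or 3 or wild-type library 1 or 3 (0.0619 to 0.106). RTG2, for the upstream sensor, fell 1.33-fold (edgeR adjusted p = 0.00974, or 0.0516 without knockout library 3). MKS1, for a negative regulator of the pathway, did not pass (log2 fold change -0.18 ± 0.10, SE; edgeR adjusted p = 0.165), but it did without knockout library 1 (0.0488) and with scaling by library totals only (0.0227).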

How the data were processed

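Poly(A)-selected RNA of 6 libraries was sequenced after stranded library preparation, per the labels' protocols. Groups and replicate numbers came from the sample titles. The authors deposited whole-number counts of reads per gene without normalization, and also, for every gene in each library, RPKM and TPM, per the file headers. The submitters' processing notes name FastQC and build R64; for the aligner and the counter, a name is not given in the sources used. Of the gene names, 86.9% matched the reference annotation of R64, and 99.7% of these had the same start and end.

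Genes were kept with filterByExpr (minimum count 10, minimum total count 15) and tested with edgeR 4.0.16 in R 4.3.3 (TMM scaling, robust quasi-likelihood fit), with Benjamini-Hochberg adjustment over 6080 genes and a threshold of 0.05. The SE and the 95% interval were computed from the F statistic. Levels between genes are compared in TPM only. Ratios were tested by exact permutation over libraries. The test was also run on simulated counts with the same dispersion for every gene and few changed genes. That setting is simpler than these data, so the run does not vouch for the calls above.

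Members and lists were chosen with earlier results of these data known. All genes of a list of at most 4 are named, otherwise the 4 with the smallest p among those that passed, together with the genes of the ratios; 1 related gene and its ratio are not reported here. Each possible window of 50 bases in the coding regions of the cycle genes and their 7 isoenzymes occurred at a single place in the genome; read length is not given in the sources used. Alternatives were other scalings, DESeq2 1.42.0, limma 3.58.1 (voom, and log2 of TPM plus 1 or 0.1), other filters, a block for the replicate number, and fits with each library left out in turn. RPKM values were not used for any test.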

Additional observations from a re-analysis of the deposited data

How the results depend on the processing

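The number of cycle genes called lower, 3, was 5 with scaling by library totals only, with DESeq2, in limma on log2(TPM + 1) and on log2(TPM + 0.1), and with the replicate number as a block; the cause was not tested. Leaving out each library in turn gave 0 to 5 lower and 1 to 2 higher cycle genes. Among related genes it gave 22 to 36 lower and 3 to 6 higher. Over all tested genes it gave 1090 to 2261 lower and 1729 to 2378 higher. Lower genes over all tested were fewest without knockout library 3 (1090) or wild-type library 1 (1211), and most without knockout library 1 (2261). Each of these fits also had fewer libraries, and the cause of these shifts was not tested. Values near 0 changed sign: ACO1 had a log2 fold change of 0.027 with upper-quartile scaling and of -0.12 to 0.032 without each library in turn, and IDH2 and LSC2 had -0.017 and -0.066 with scaling by library totals only. The 9 ratios kept their direction with counts per kilobase and without each library. With the block, 2059 genes were higher and 1857 lower, against 2085 and 1826 without it. Same-numbered libraries of the genotypes deviated together for replicates 1 and 2 (r = 0.32 and 0.18) but not for replicate 3 (r = -0.07). Between libraries of different numbers, r ran from -0.30 (knockout 2, wild type 1) to 0.26 (knockout 3, wild type 2). Whether the numbers pair the libraries cannot be told from these values. The replicate numbers used are those of the sample titles. The knockout library names are numbered 3 to 5 instead, and the wild-type ones 1 to 3. With 3 libraries a group, no permutation test over libraries could reach a p below 0.10.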

Other observations

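The 3 paralogues of cycle enzymes below spread widely among the knockout libraries; they are named here after their values were seen. CIT3, for a minor mitochondrial citrate synthase, had 257, 58.8 and 131 TPM in knockout libraries 1 to 3, against 399, 428 and 387 TPM in wild-type libraries 1 to 3. SDH9, listed as YJL045W and a paralogue of SDH1, had 14.2, 2.74 and 4.37 TPM in knockout libraries 1 to 3, against 33.6, 29.8 and 32.8 TPM in wild-type libraries 1 to 3. SHH3, a paralogue of SDH3, had 86.2, 15.0 and 29.1 TPM in knockout libraries 1 to 3, against 151, 124 and 143 TPM in wild-type libraries 1 to 3. In all 3 genes knockout library 2 was lowest and knockout library 1 highest among the knockout libraries, and no knockout value reached the wild-type range. The edgeR adjusted p was 0.0332 for CIT3, 0.0118 for SDH9 and 0.0352 for SHH3. CIT3 and SHH3 missed the threshold when knockout library 3 or any wild-type library was left out, CIT3 with an edgeR adjusted p between 0.0718 and 0.0982 and SHH3 with one between 0.0656 and 0.107.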
